A study of Caenorhabditis elegans with 22 samples.

Results

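The 21U loci of Caenorhabditis elegans are the annotated sources of its PIWI-interacting RNAs (piRNAs). In the annotation of genome build WBcel235 each of them is 21 nt long. Loci were taken if their name in the deposited FPKM tables began with 21ur-, and 8482 did so; the reference table holds a further 6881 that those tables do not name. They were joined by gene ID to the small RNA tables of adr-1;adr-2 and eri-6, which hold 46780 genes, and kept at a mean of at least 10 normalised reads over the 4 libraries of a table. Loci with the same reads in every library were counted once. The rule left 3501 loci in the adr-1;adr-2 table and 3510 in the eri-6 table, 3627 in either and 3384 in both. The other 4948 and 4940 loci of the rule had lower means, and 33 and 32 copies were set aside. Of those kept, 203 and 299 had a wild-type mean under 10 and so passed through the mutant, and 268 and 241 had a mutant mean under 10.

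In worms each piRNA is transcribed from its own small unit, trimmed and loaded onto the Piwi Argonaute PRG-1 in the germline. PRG-1 with its piRNA recognises transcripts by imperfect pairing and calls in RNA-dependent RNA polymerases, which make secondary siRNAs on the target, and these are carried by worm-specific Argonautes such as HRDE-1 and WAGO-1. Most piRNA units lie in broad clusters on chromosome IV, many of them inside introns or between genes, and the pathway is known for silencing transposons and foreign sequence in the germline. Small RNA libraries of whole worms also hold siRNAs that are antisense to genes, and these may cover the same bases as an annotated 21U locus.

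The study asked how RNA editing and the ERI-6/7 helicase pathway act on the RNA interference system. ADR-1 and ADR-2 are the ADAR proteins of the worm, of which ADR-2 edits adenosine in double-stranded RNA, and eri-6 contributes to a helicase needed for a class of endogenous siRNAs bound by the Argonaute ERGO-1. Whole young adults with embryos, grown at 20 °C and taken 70 h after arrest at the L1 stage, gave 22 samples, and 6 small RNA libraries of 3 genotypes are described here with the deposited total RNA values of 4 genotypes. Small RNA of 18 to 28 nt had been treated with a polyphosphatase, so that siRNAs with a triphosphate at the 5′ end were also captured. For wild type, N2 served as replicate 2 and GR1831, with the mgIs30 transgene, as replicate 1. For the adr-1;adr-2 double mutant, strain BB4 with alleles gv6 and gv42 served as replicate 1 and strain BB21 with tm668 and ok735 as replicate 2; in total RNA the label pairs BB4 with tm668 and ok735. Both eri-6 libraries were strain GR1814, eri-6(mg379). The triple mutant, adr-1 eri-6;adr-2, was strain GR1744 with gv6, mg379 and gv42. The replicates of wild type and of the double mutant thus differ in strain as well, and nothing in the labels ties a replicate number to a shared culture or day.

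The recovered depths were 25690179 and 12446099 reads in wild type, 32303754 and 15417839 in the double mutant, and 29683818 and 10904105 in eri-6, so that 1 read was worth between 0.0310 and 0.0917 RPM. RPM is a library's reads scaled to the sum over all genes of the table, where a read over overlapping genes can count for each of them. The same wild-type libraries serve both comparisons. Replicate numbers differed in makeup in every genotype: microRNA genes held 39.3%, 39.8% and 39.1% of reads in the replicate 1 libraries and 23.5%, 24.7% and 21.3% in the replicate 2 libraries, each in the order just given. Replicates of a genotype differed at the 21U loci in every genotype, most of all in wild type. Over the 3627 loci the rank correlation between replicates was 0.57 in wild type, 0.67 in adr-1;adr-2 and 0.71 in eri-6. That of wild-type replicate 1 with replicate 1 of the mutants was 0.74 and 0.67. Between adr-1;adr-2 and eri-6 it was 0.94 for replicate 1 and 0.84 for replicate 2. Over the 651 loci with at least 1000 reads in all, the rank correlation between replicates was 0.27 in wild type, 0.47 in adr-1;adr-2 and 0.35 in eri-6. These are descriptions across loci that share libraries and depth. Results below are given within each replicate number, and the direct comparison of eri-6 with adr-1;adr-2 leaves the wild-type libraries out.

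The place of the loci on the chromosomes went with how many of them reached the mean of 10. Of the 3627 loci, 3084 lay in a right-hand window of chromosome IV, whose outermost annotated loci start at 13543927 and end at 17199461, and 443 in a left-hand window, from 4630304 to 6998272. Together these made 97.2%. Another 63 lay elsewhere on chromosome IV and 37 on other chromosomes. The share of annotated loci that passed was 53.0% of 5875 in the right-hand window, 26.2% of 1703 in the left-hand window, 16.8% of 374 elsewhere on chromosome IV and 6.98% of 530 on other chromosomes. In all, 1315 of the 3627 lay within the span of another gene and 212 overlapped another 21U locus, whose reads may then be shared. Of the 37 loci on other chromosomes, 32 lay within the span of another gene. The threshold cuts through a continuous range of levels: in the small RNA table of adr-1;adr-2, 21ur-2213 passed at a mean of 10.01 normalised reads, and 21ur-3182 did not at 9.99.

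The most abundant 21U locus in wild type was 21ur-1689 at IV:16093040-16093060, between genes. It had 155 and 186 RPM in wild type, 598 and 153 RPM in the double mutant, and 904 and 97.1 RPM in eri-6. Replicate 1 was higher than wild type in both mutants and replicate 2 was lower, so the groups overlapped. The next by mean wild-type level were 21ur-324, 21ur-3085, 21ur-12947, 21ur-380, 21ur-4864, 21ur-2799 and 21ur-14, all on chromosome IV except 21ur-12947. Since all loci are 21 nt long, their RPM can be set side by side, and these 8 ranged from 30.5 to 225 RPM in wild-type replicate 1. Within talp-3, a protein-coding gene, 21ur-3085 had 144 and 135 RPM in wild type, 193 and 135 RPM in the double mutant, and 326 and 120 RPM in eri-6. Its replicate 2 libraries lay close together, and its replicate 1 libraries were higher in both mutants.

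The locus 21ur-12947, at X:13397505-13397525 inside the protein-coding gene F02C12.3, stood apart in its replicate numbers. It had 30.5 and 229 RPM in wild type, 40.0 and 147 RPM in the double mutant, and 47.1 and 287 RPM in eri-6. All replicate 2 libraries were above all replicate 1 libraries, whatever the genotype, which held for none of the other 7. The gene around it had 239 and 1142 RPM in wild type, 210 and 767 RPM in the double mutant, and 295 and 1459 RPM in eri-6, with the same order of replicate numbers.

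The share of reads at 21U loci was higher in each mutant than in the wild-type library of the same replicate number. It was 2.06% and 1.08% in wild type, 2.71% and 1.52% in the double mutant, and 3.59% and 1.55% in eri-6. The mutant to wild-type ratio was 1.31 and 1.41 for adr-1;adr-2 and 1.74 and 1.44 for eri-6. The replicate numbers differed more than the genotypes did, by 1.91-fold in wild type, 1.78-fold in the double mutant and 2.31-fold in eri-6, and every replicate 2 library lay below every replicate 1 library. An exact permutation test of 2 libraries against 2 cannot go below p = 0.333, so no p was computed. For microRNA genes the same ratios were 1.01 and 1.05 for adr-1;adr-2 and 0.996 and 0.910 for eri-6. In bulk RNA of whole worms, a change in the number of germ cells and a change in piRNA per germ cell cannot be told apart.

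**Figure D1:**
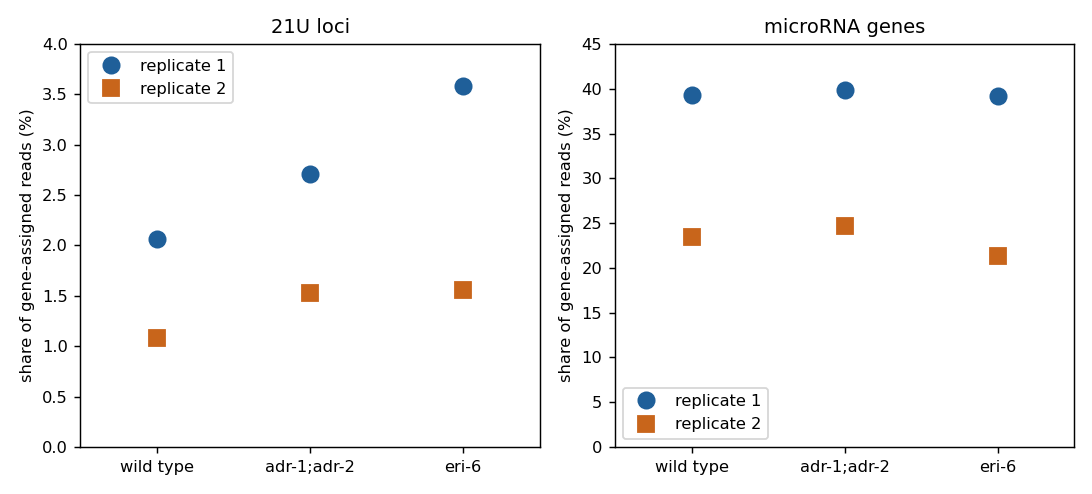
Share of gene-assigned small RNA reads (%) at 21U loci (left) and at microRNA genes (right), 1 point per library, for wild type, adr-1;adr-2 and eri-6. Circles are replicate 1 and squares replicate 2, and the 21U share is lowest in wild type within each replicate number (2.06% and 1.08%).

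Wild-type replicate 2 was also the library with the fewest 21U loci detected. Of the 8482 loci, 7222 and 4236 had a read in wild type, 7143 and 5524 in the double mutant, and 7098 and 5434 in eri-6. A Poisson redraw of the observed shares at the depth of the smallest library, eri-6 replicate 2, gave lower expected counts. These were 6371 and 3623 in wild type, 6081 and 4741 in the double mutant, and 6106 and 4897 in eri-6. Such a redraw loses loci with few reads even at unchanged depth, as 4897 against 5434 in eri-6 replicate 2 shows. The values are therefore too low, mostly where many loci have few reads. The 100 highest loci held 44.0% of the 21U reads of wild-type replicate 2 and between 24.9% and 37.1% in the other libraries. The median locus of the 3627 had 60 and 5 reads in wild type, 68 and 15 in the double mutant, and 73 and 12 in eri-6, so single loci of replicate 2 rest on few reads.

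For the typical 21U locus the replicate numbers did not give the same change. In the double mutant the median log2 ratio of normalised reads plus 1 to wild type was -0.10 within replicate number 1 and 1.02 within replicate number 2, beside -0.25 and 0.01 over all 23975 genes tested. In eri-6 it was 0.38 and 0.82, beside -0.01 and -0.02 over all 23380 genes tested. All genes include the 21U loci. Over the genes that are no 21U loci the medians were -0.30 and -0.29 in the double mutant (n = 16001), and -0.10 and -0.21 in eri-6 (n = 15345). The medians of the loci lay above both in each replicate number, but 56.9% of the loci in the double mutant and 52.7% in eri-6 had ratios of opposite sign in the replicate numbers. The direct comparison of eri-6 with adr-1;adr-2 used joint TMM scaling in place of the deposited normalised values. Its median was 0.34 and -0.24, beside 0.13 and -0.01 over all genes, and 61.8% of the loci had opposite signs.

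The count of loci past 2-fold in both replicate numbers leaned upward in eri-6. There, 277 of 3510 loci were higher, which is 7.89%, against a background of 3.34% of all genes, and 30 were lower, 0.855% against 2.1%. In the double mutant, 157 of 3501 loci were higher, 4.48% against 3.46%, and 46 were lower, 1.31% against 1.99%. The shares in the double mutant lay near the background. Over the genes that are no 21U loci, the shares for eri-6 were 1.52% higher and 2.88% lower, and those for the double mutant 3.36% and 2.53%. Requiring at least 10 reads in every library leaves out loci that are low in any of them, and 1254 loci passed in each comparison. Of these, 74 were higher in eri-6, 5.90% against 2.13% of all genes under the same filter, and 1 was lower, against 1.33%. Under this filter 77 were higher in the double mutant, 6.14% against 2.66% of all genes, and 2 were lower, against 1.33%. Between eri-6 and adr-1;adr-2, with joint TMM scaling, 27 of 3485 loci were higher in eri-6, 0.775% against 1.48% of all genes. There, 12 were lower, 0.344% against 4.01%.

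With limma, no 21U locus passed an adjusted p of 0.05 in either comparison, and neither did any other gene (0% of genes in the double mutant and 0% in eri-6). At an unadjusted p under 0.05 limma gave 7 loci higher and 3 lower in the double mutant, and 6 higher and 5 lower in eri-6, where 1.35% and 1.01% of all genes had such a p in either direction. The quasi-likelihood test of edgeR on recovered reads also called no locus, and at an unadjusted p under 0.05 it gave 18 higher and 2 lower, and 7 higher and 6 lower, with 1.93% and 1.06% of all genes. DESeq2 on the same reads called 2 loci lower in the double mutant, 21ur-10492 and 21ur-10687, and 3 lower in eri-6, 21ur-9823, 21ur-9719 and 21ur-15566. It called 10 genes lower in the double mutant, 0.0417% of all tested, and 124 in eri-6, 0.53%. All 5 loci lie on chromosomes II, III and X, within the span of other genes.

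**Figure D2:**
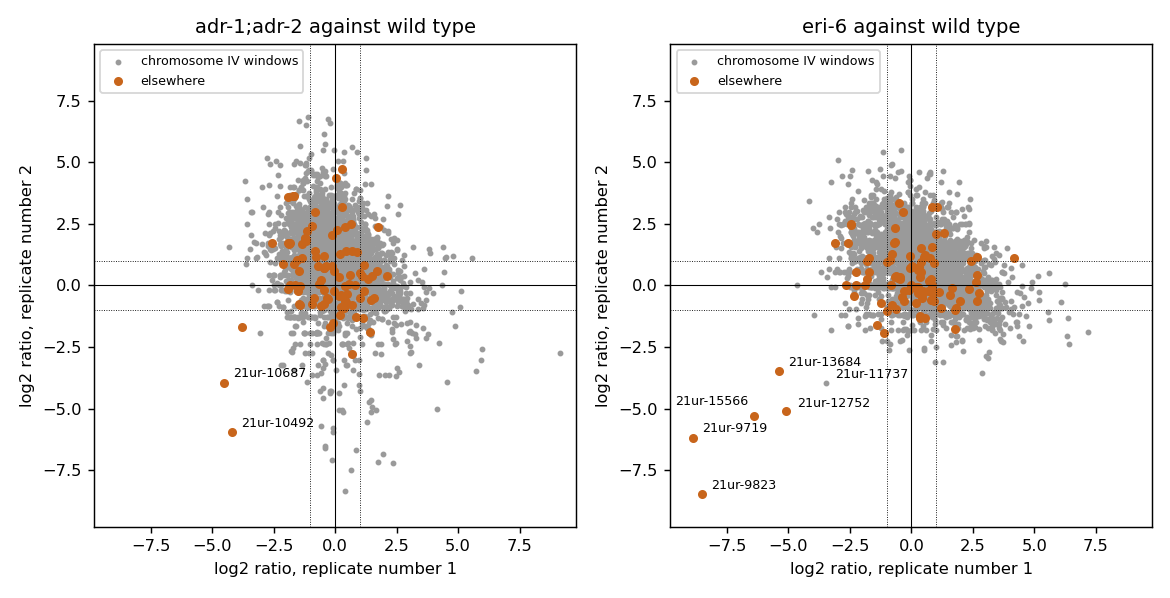
Log2 ratio of normalised reads plus 1, mutant over wild type, within replicate number 1 (horizontal) and 2 (vertical), 1 point per 21U locus with a mean of at least 10 (3501 in the double mutant, 3510 in eri-6). Grey points lie in the chromosome IV windows, orange points elsewhere, dotted lines mark 2-fold, and the loci low in both replicate numbers are named.

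Abundant and rare loci differed in how the replicate numbers changed. The 3627 loci were ranked by mean level over the 6 libraries and put into 4 classes of 906 or 907 loci, a ranking that uses the same libraries, so the values are a description. The summed level of the lowest class in the double mutant was 0.684 times that of wild type within replicate number 1 and 2.27 times within replicate number 2. In the highest class the ratios were 1.57 and 1.28. In eri-6 the lowest class had ratios of 0.738 and 2.59, and the highest class 2.14 and 1.28. Only the highest class of these 4 was above wild type in both replicate numbers in the double mutant, and only the upper 2 classes were so in eri-6. Median reads of the lowest class were 27 and 1 in wild type, 24 and 4 in the double mutant, and 23 and 3 in eri-6.

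Loci on other chromosomes did not share the pattern of the windows on chromosome IV. Their median log2 ratio was -0.36 and -0.02 in the double mutant (n = 35) and -0.33 and -0.21 in eri-6 (n = 36). In the right-hand window it was -0.10 and 1.05 in the double mutant (n = 2990), and 0.39 and 0.80 in eri-6 (n = 2991). The left-hand window had 0.00 and 0.94 in the double mutant (n = 418), and 0.41 and 1.02 in eri-6 (n = 422). Wild-type replicate 1 exceeded replicate 2 by a median log2 of 2.54 in the right-hand and 3.14 in the left-hand window, and was lower by it on other chromosomes (median -0.78). The difference between places was not tested. Within the windows, loci inside and outside other genes had like medians: 1.06 and 1.03 within replicate number 2 of the double mutant, and 0.87 in both sets of eri-6.

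Of the 8 loci with the highest ratios in both replicate numbers of the double mutant, 21ur-3976 had the most reads in wild-type replicate 2 (19). In the double mutant, 21ur-3976 at IV:15777728-15777748 had 6.93 and 15.0 RPM against 1.09 and 1.53 RPM in wild type, and eri-6 had 12.8 and 1.56 RPM. The adr-1;adr-2 libraries and eri-6 replicate 1 lay well above both wild-type libraries, and eri-6 replicate 2 lay close to wild-type replicate 2. With limma its log2 fold change in the double mutant was 2.93 (SE 0.96), which did not pass (adjusted p = 1.00). The locus 21ur-6620, at IV:5562338-5562358, was among the 8 highest of both mutants, as was 21ur-9475, with 1.25 and 0.161 RPM in wild type, 7.46 and 1.56 RPM in the double mutant, and 5.63 and 1.56 RPM in eri-6. The 4 mutant libraries lay above both wild-type libraries, although wild-type replicate 2 had only 2 reads. The others highest in the double mutant were 21ur-2704, 21ur-7133, 21ur-9475, 21ur-5115, 21ur-6856 and 21ur-2413, with between 0 and 4 reads in wild-type replicate 2. In eri-6 they were 21ur-8296, 21ur-8041, 21ur-12597, 21ur-489, 21ur-830, 21ur-1683 and 21ur-9475, with between 0 and 9 reads there. Some of these had a wild-type mean under 10 normalised reads and passed the filter only through the mutant. They were 21ur-2704, 21ur-7133 and 21ur-9475 in the double mutant, and 21ur-8296, 21ur-12597, 21ur-1683 and 21ur-9475 in eri-6. Their high ratios are thus not independent of the filter.

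Of the 8 loci that were lowest in eri-6 in both replicate numbers, 6 lay inside other genes whose level was below wild type in both eri-6 libraries as well. The locus 21ur-9823, at III:1371141-1371161 within the long noncoding RNA gene linc-24, had 430 and 281 reads in wild type, 303 and 912 in the double mutant, and 0 and 0 in eri-6. All 4 other libraries were far above eri-6, and against a floor of 3 reads per library the eri-6 level was at least 166-fold lower within replicate number 1 and at least 82.1-fold lower within replicate number 2. The gene linc-24 itself had 62.6 and 122 RPM in wild type, 49.99 and 379 RPM in the double mutant, and 0.270 and 1.74 RPM in eri-6.

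In linc-22 on chromosome X, also a long noncoding RNA gene, both loci were low in eri-6, as was the gene. The locus 21ur-9719 at X:9072394-9072414 had 1483 and 521 reads in wild type, 803 and 2360 in the double mutant, and 2 and 7 in eri-6. The locus 21ur-15566 at X:9071288-9071308, which also overlaps the snoRNA gene F47E1.19, had 265 and 103 reads in wild type, 145 and 448 in the double mutant, and 2 and 2 in eri-6. In both loci the eri-6 libraries did not overlap the others. The gene linc-22 had 3930 and 5399 RPM in wild type, 2220 and 10151 RPM in the double mutant, and 34.5 and 136 RPM in eri-6. Per length, 21ur-9719 had 2749 and 1993 RPM per kb in wild type and linc-22 had 855 and 1174 RPM per kb.

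Each of these 3 loci was lower in eri-6 in 2 of 2 libraries. Their limma log2 fold changes were -8.49 (SE 1.08) for 21ur-9823, -7.53 (SE 0.94) for 21ur-9719 and -5.85 (SE 1.03) for 21ur-15566. The adjusted p by limma was 0.0945, 0.0924 and 0.271, and by DESeq2 it was 1.06e-07, 1.02e-10 and 5.45e-05. With joint TMM scaling limma called 21ur-9823 and 21ur-9719, at adjusted p of 0.0224 and 0.0197, among 47 genes lower (0.198% of all tested).

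Another 3 loci were low in eri-6 in the same way. The pair 21ur-12752 and 21ur-13684 lies in linc-59 and the pseudogene F57G8.14 on chromosome V, at V:16319146-16319166 and V:16319095-16319115. Neither had a read in eri-6, while 21ur-12752 had 39 and 26 reads in wild type and 17 and 19 in the double mutant, and 21ur-13684 had 48 and 8 in wild type and 15 and 9 in the double mutant. The gene linc-59 had 58.6 and 42.9 RPM in wild type, 30.5 and 41.4 RPM in the double mutant, and 0.168 and 0.275 RPM in eri-6. On chromosome IV, 21ur-11737 at IV:15650061-15650081, inside the pseudogene Y105C5A.1271, had 78 and 54 reads in wild type, 46 and 69 in the double mutant, and 6 and 3 in eri-6. Its gene had 46.2 and 83.6 RPM in wild type, 30.4 and 139 RPM in the double mutant, and 3.84 and 10.5 RPM in eri-6. The last of the 8 lowest in eri-6, 21ur-2571 and 21ur-3210, had 2 reads each in wild-type replicate 2. The first lies in ZK616.1, a protein-coding gene whose log2 ratio in eri-6 was 0.61 and 0.56, and 21ur-3210 lies in no other gene.

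The long noncoding RNA genes linc-11 and linc-75 were lower in eri-6 by much less, and their loci differed among themselves. The log2 ratio of the gene within the replicate numbers was -0.16 and -0.35 for linc-11, and -0.37 and -0.52 for linc-75. The locus 21ur-8285 in linc-11 had 33.9 and 54.9 RPM in wild type and 37.3 and 86.3 RPM in eri-6, and linc-11 had 240 and 581 RPM in wild type and 186 and 572 RPM in eri-6. The locus 21ur-9757 in linc-75 had 2.72 and 6.11 RPM in wild type and 1.52 and 3.85 RPM in eri-6. In both the eri-6 and wild-type libraries overlapped. The second locus in linc-11, 21ur-14793, had 7.47 and 16.2 RPM in wild type, 4.396 and 35.8 RPM in the double mutant, and 2.96 and 5.32 RPM in eri-6, and its eri-6 libraries lay below both wild-type libraries.

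In the double mutant the lowest loci by far lay in 1 protein-coding gene, F15D4.5 on chromosome II. The locus 21ur-10492, at II:13247294-13247314, had 500 and 993 reads in wild type, 33 and 19 in the double mutant, and 814 and 933 in eri-6. The locus 21ur-10687, at II:13246773-13246793, had 318 and 571 reads in wild type, 16 and 45 in the double mutant, and 324 and 1069 in eri-6. In both, the adr-1;adr-2 libraries lay below all others although they came from different strains and alleles, and the eri-6 libraries overlapped wild type. The gene F15D4.5 had 618 and 2347 RPM in wild type, 80.7 and 101 RPM in the double mutant, and 576 and 2264 RPM in eri-6. The other 6 of the 8 lowest, 21ur-2603, 21ur-1334, 21ur-3201, 21ur-5336, 21ur-3890 and 21ur-3409, lie on chromosome IV and had between 2 and 30 reads in wild-type replicate 2 and between 0 and 5 in replicate 2 of the double mutant.

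With limma the log2 fold changes in the double mutant were -5.08 (SE 0.97, adjusted p = 0.390) for 21ur-10492 and -4.24 (SE 1.06, adjusted p = 0.938) for 21ur-10687, each lower in 2 of 2 libraries. By DESeq2 the adjusted p was 3.90e-05 and 0.0177. The small RNA table of the triple mutant lists only genes that the authors selected on these libraries, so it is not independent evidence of a direction. These 2 were the only 21U loci listed there. In it, 21ur-10492 had 46.0 and 30.3 normalised reads in the triple mutant and 523 and 1660 in wild type, and 21ur-10687 had 16.4 and 35.9 against 332 and 955. The table also lists F15D4.5 and linc-22, with 2353 and 2501 normalised reads against 16609 and 48841, and 1262 and 1767 against 105529 and 112361.

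Among loci inside exactly 1 other gene whose remaining reads could be measured, the locus and the rest of its gene had like ratios outside chromosome IV and not in its windows. The rest of a gene is its normalised reads less those of every 21U locus in its span, since for 1240 of 1248 such loci the gene had at least as many reads as the locus in all 6 libraries, as when a gene's count includes the locus. Loci were left out where the rest of the gene had a mean under 10 or a value below 0. In the windows that left out 656 in the double mutant and 729 in eri-6, and on other chromosomes none. On other chromosomes Pearson's r between the log2 ratios was 0.90 and 0.90 in the double mutant (n = 28) and 0.96 and 0.88 in eri-6 (n = 29). Without genes past 4-fold it was 0.71 and 0.71 (n = 25), and 0.49 and 0.19 (n = 27), so the eri-6 values rest on linc-22 and linc-24. In the windows it was 0.16 and 0.05 in the double mutant (n = 489) and -0.02 and -0.08 in eri-6 (n = 420). Elsewhere on chromosome IV it was 0.64 and 0.56 in the double mutant (n = 26) and 0.51 and 0.10 in eri-6 (n = 26). The rank correlation on other chromosomes was 0.64 and 0.85 in the double mutant, and 0.54 and 0.36 in eri-6. These are descriptions across loci that share libraries, and several loci share a gene. The files give no read length, first base or strand, so a piRNA and an siRNA over the same bases cannot be told apart.

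A single gene in the left-hand window shows the opposite case to linc-22, and it was picked after its values were seen. The pseudogene T08B6.2, at IV:4894370-4897043, holds 21ur-5686 and 21ur-5759. Outside its 21U loci its normalised reads were 1252 and 1079 for wild type, against 6.72 and 2.31 for eri-6. The locus 21ur-5686, at IV:4895065-4895085, had 33 and 0 reads in wild type, 45 and 14 in the double mutant, and 97 and 11 in eri-6. The locus 21ur-5759, at IV:4895343-4895363, had 23 and 0 reads in wild type, 27 and 5 in the double mutant, and 70 and 3 in eri-6. Both loci were higher in eri-6 than in the wild-type library of the same replicate number, while the rest of the gene was lower.

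**Figure D3:**
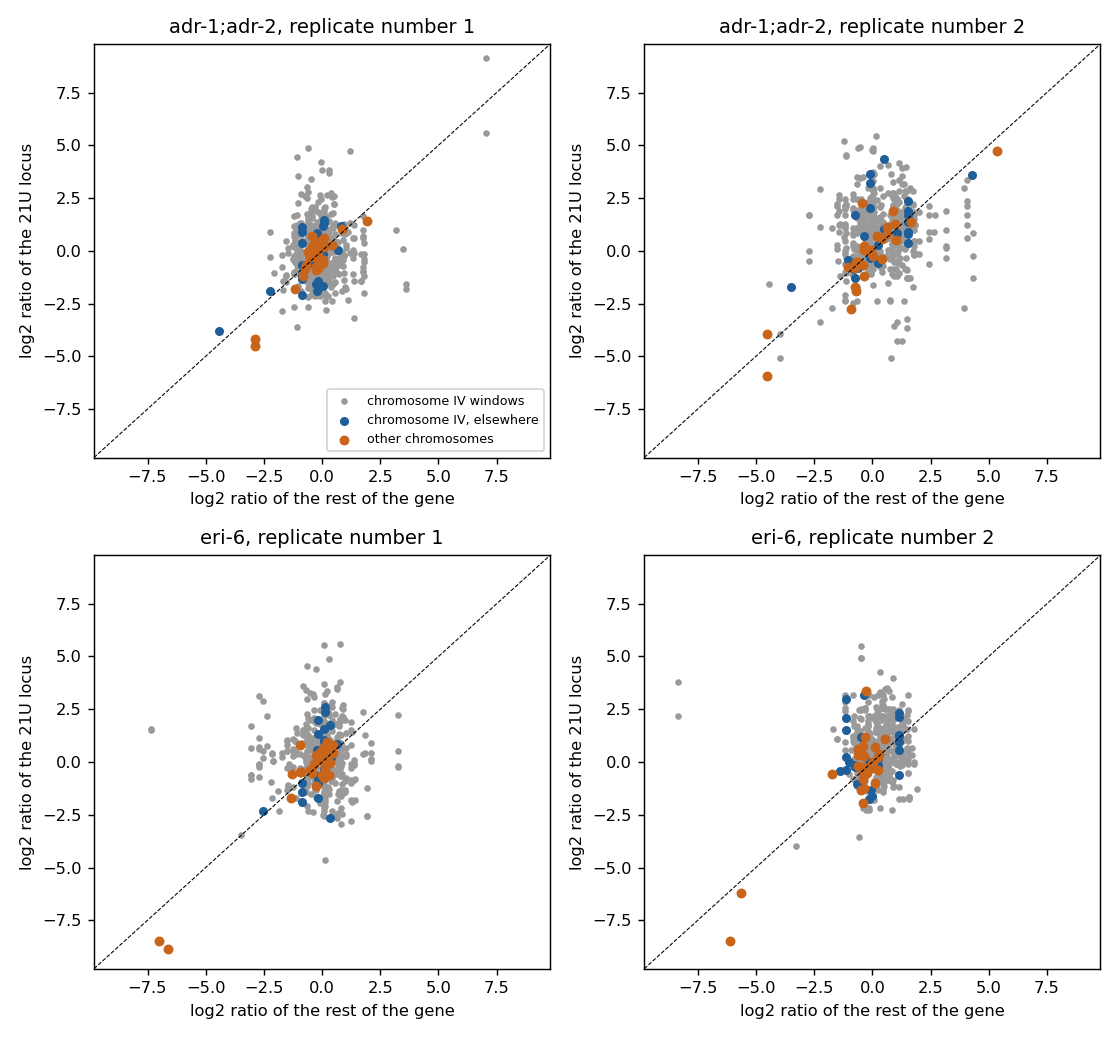
Log2 ratio of mutant to wild type at a 21U locus (vertical) against that of the rest of the gene that holds it (horizontal), for adr-1;adr-2 (top) and eri-6 (bottom) within replicate numbers 1 and 2. Points are loci (grey in the chromosome IV windows, blue elsewhere on chromosome IV, orange on other chromosomes), and the dashed line marks equal ratios. The orange points lie nearer to it (median absolute gap of 0.45 to 0.60 in log2) than the grey ones do (0.95 to 1.17).

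An interval of the right-hand window was silent in 1 library. In double mutant replicate 2, strain BB21, the 21U loci from IV:16064541 to IV:16078854, over 14314 bp, had 1 read in all, at 21ur-2616. The same 38 loci had 3791 and 229 reads in wild type, 3399 in double mutant replicate 1, and 3292 and 533 in eri-6. Every other library, wild type of either strain and the BB4 mutant included, thus had reads there. The 23 of these loci with a mean of at least 10 all had 0 reads in BB21.

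Loci on both sides of the interval had reads in BB21. The 9 loci in the 10 kb before it had 672 reads in BB21, against 1556 and 291 in wild type. The 23 loci in the 10 kb after it had 766 reads in BB21, against 1717 and 264 in wild type. On both sides BB21 lay between the wild-type libraries. The outermost loci of the interval, 21ur-5422 and 21ur-2488, had 0 reads in wild-type replicate 2 and 1 read each in eri-6 replicate 2. Their 0 in BB21 therefore says little, and the exact edges are not fixed by these counts.

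A further 17 annotated 21U loci in the interval, not named in the FPKM tables, showed the same. They had 2 reads in BB21, against 3435 and 2157 in wild type, 8233 in BB4, and 11407 and 1296 in eri-6. The only other gene in the interval, the protein-coding Y105C5B.1418, had at most 5 reads in any library.

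Single loci give the size of the gap. The locus 21ur-2845, at IV:16068254-16068274, had 27.9 and 2.89 RPM in wild type, 18.6 RPM in BB4, 0 in BB21, and 22.03 and 10.7 RPM in eri-6. The locus 21ur-1311, at IV:16071973-16071993, had 26.1 and 5.22 RPM in wild type, 19.6 RPM in BB4, 0 in BB21, and 18.2 and 10.3 RPM in eri-6. A count of 0 in BB21 allows up to 0.195 RPM. The interval was found by listing runs of neighbouring loci with 0 reads in 1 library, among loci with at least 30 reads in the other 5, so it was chosen after the values were seen. Its runs were of 20 and 7 loci, and the longest run in any other library was of 6, in wild-type replicate 2. What sets the BB21 library apart there was not tested.

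**Figure D4:**
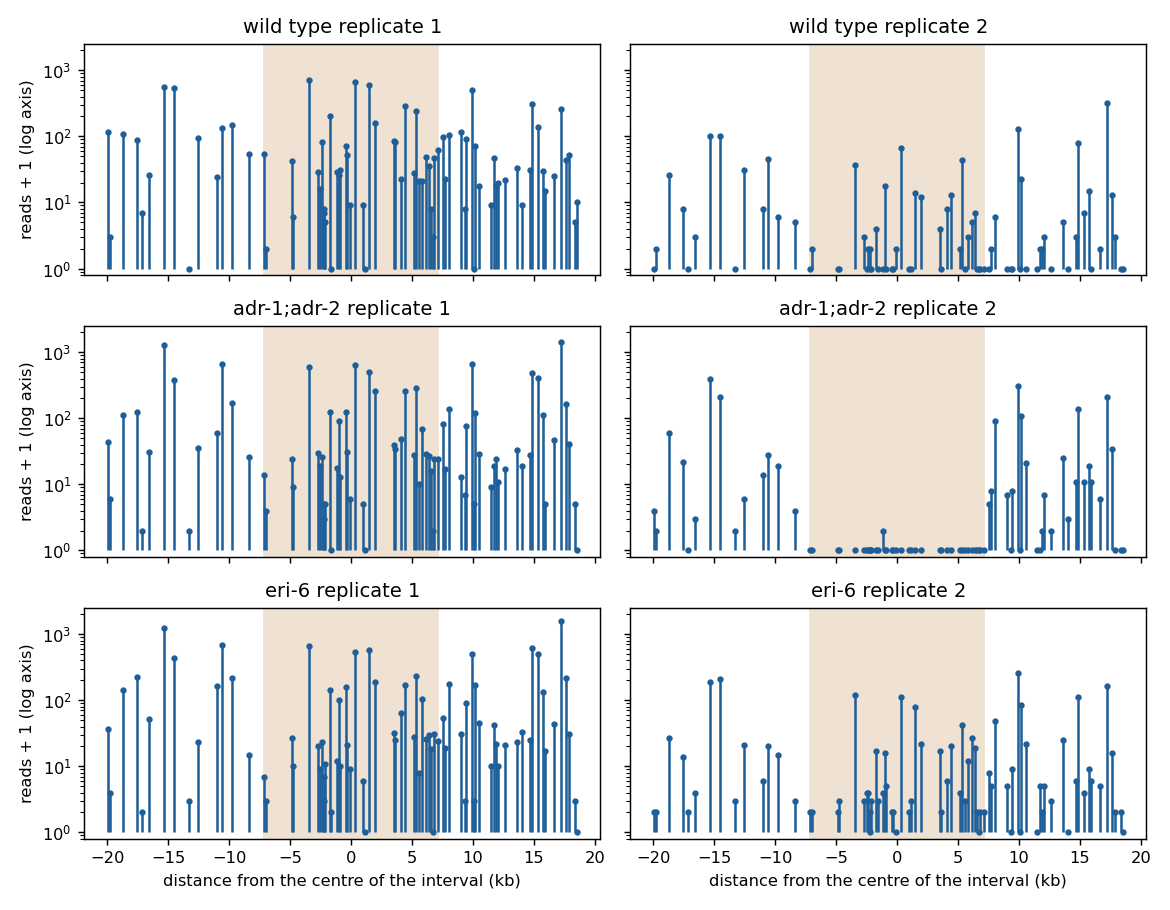
Reads plus 1 (log axis) at each 21U locus within 20 kb of the centre of the interval (horizontal, kb), 1 panel per library, where each line and point is a locus. The shaded 14314 bp hold 38 loci with 1 read in all in double mutant replicate 2 and 229 to 3791 reads in the other libraries.

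BB21 also lacked reads at loci outside the interval. Taking loci whose median over the other 5 libraries was at least 2 RPM, 73 of 1625 in BB21 were at or below a sixteenth of that median, 41 of them with 0 reads. Of these, 65 and 33 lay outside the interval. The counts over all loci were 2 of 1329 in BB4, 6 of 1324 and 116 of 1672 in wild-type replicates 1 and 2, and 3 of 1313 and 22 of 1626 in eri-6. The share was thus larger in wild-type replicate 2 than in BB21, 6.94% against 4.49%, and 29 of the 116 had 0 reads there. Of the 73, 5 lay in the left-hand and 64 in the right-hand window. The locus 21ur-4147, at IV:14406372-14406392 within the protein-coding gene xdh-1, had 19.8 and 18.6 RPM in wild type, 26.1 RPM in BB4, 0 in BB21, and 29.9 and 20.1 RPM in eri-6. The locus 21ur-31, at IV:15760144-15760164, had 18.5 and 22.01 RPM in wild type, 29.2 RPM in BB4, 0.0649 RPM in BB21, and 38.7 and 23.6 RPM in eri-6. At both, the other 5 libraries lay close together and BB21 stood alone.

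The reverse, a locus high in 1 library, was found too. The locus 21ur-11874, at IV:15852197-15852217 within Y105C5A.24, had 1507 reads in BB4, 1 and 4 in wild type, 0 in BB21, and 6 and 0 in eri-6. In BB21, 21ur-1685 at IV:16150705-16150725 had 533 reads, with 16 and 4 in wild type, 8 in BB4, and 17 and 7 in eri-6. Also in BB21, 21ur-13985 within chst-1 on chromosome II had 314 reads, with at most 26 in any other library, and the rest of chst-1 was likewise higher there than in wild type (log2 ratio 5.37). Among loci at 2 RPM or more in a library, those at least 16-fold above the median of the other libraries were counted. There were 60 of 2015 in wild-type replicate 1 and 0 of 823 in wild-type replicate 2. BB4 had 19 of 1867 and BB21 8 of 1278, and eri-6 had 32 of 2018 and 0 of 1331. The rate over other genes is not given, for these or for the low loci above. Whether such loci are particular to 21U loci was not tested.

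In the longer RNA no 21U locus had a value above 0. The deposited FPKM tables list 8455 of them for total RNA and 8479 in each mRNA table. The mRNA came from wild type and the triple mutant on control, drh-1 or nrde-3 RNA interference food. Each genotype and food had 1 mRNA library. Every listed locus is at 0 in every column of these tables. Genes of the piRNA pathway were therefore read from the total RNA table, where the authors deposited 1 FPKM and its bounds for each genotype. A gene was called when its bounds did not overlap those of wild type. Of 28 listed genes, 21 were in the table.

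All pathway genes called in a mutant were higher there than in wild type. In the double mutant, 12 were higher and none lower, with 21.1% of all genes tested called higher and 14.8% lower. In eri-6, 4 were higher and none lower, with backgrounds of 12.6% and 7.39%. In the triple mutant, 9 were higher and none lower, with backgrounds of 21.6% and 18.4%. The list's median log2 ratio of FPKM plus 1 was 0.96, 0.51 and 0.73, beside 0.13, 0.12 and 0.08 over all genes. The comparisons share the wild-type value.

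Of the genes that promote piRNA transcription, tofu-4 had a deposited FPKM of 3.51 in wild type, 11.4 in the double mutant, 6.60 in eri-6 and 10.1 in the triple mutant. It was called in the double mutant and the triple mutant, as were tofu-5 and prde-1. For prde-1, whose product acts at piRNA clusters, the deposited FPKM was 6.02, 11.7, 8.74 and 11.01 in the same order. The gene unc-130, a forkhead transcription factor, was at 1.17 in wild type and between 0.298 and 0.882 in the mutants, and was not called.

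Among genes for processing, slfl-3, a subunit of the complex that trims the 5′ end, had a deposited FPKM of 5.18 in wild type, 19.9 in the double mutant, 13.8 in eri-6 and 18.4 in the triple mutant. It was called in all 3 mutants, as was tofu-7. Apart from the genes for processing, tost-1, whose product binds the PETISCO complex, was also called in all 3 mutants. It was at 52.9, 114, 137 and 102 in the same order. Genes for processing not called in any mutant included parn-1, which trims the 3′ end, with 5.84 in wild type and 7.07 to 8.70 in the mutants. Also not called were tofu-2, with 32.3 in wild type and 35.3 to 43.6 in the mutants, and pid-1, pid-3 and erh-2 of PETISCO. The value of erh-2 was 47.8 in wild type and 107 to 120 in the mutants, but its bounds were wide (5.34 to 90.3 in wild type).

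The Argonaute gene prg-1 had a deposited FPKM of 22.8 in wild type, 42.3 in the double mutant, 25.1 in eri-6 and 34.3 in the triple mutant, and was called in the double mutant. Downstream, hrde-1 was at 24.7, 76.1, 39.4 and 72.5, and wago-1 at 37.6, 128, 60.8 and 129. Both were called in the double mutant and the triple mutant. The polymerase gene ego-1 was at 7.20, 46.4, 14.6 and 41.4, and was called in all 3. The genes csr-1, which encodes the Argonaute that protects germline genes from silencing, and mut-16 were called in the double mutant.

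The summed germline markers in total RNA moved with these genes, and their part in the result was not tested. All 8 germline markers were above 0 in every genotype, and their summed deposited FPKM was 186 in wild type, 522 in the double mutant, 246 in eri-6 and 408 in the triple mutant. The 4 oocyte markers in the table summed to 68.9, 331, 113 and 292, and the 9 sperm markers to 19.5, 54.3, 52.2 and 64.5. Among the sperm markers, fer-1 and ssp-9 were listed at 0 in wild type, and spe-9 was lower in every mutant (0.418 in wild type and 0.119 to 0.295 in the mutants). The germline marker pgl-3 was at 24.8 in wild type, 26.7 in the double mutant, 23.9 in eri-6 and 23.6 in the triple mutant. The 6 intestine markers, among them the yolk protein genes, summed to 1575, 1102, 674 and 541, and the 4 muscle markers to 104, 105, 69.6 and 77.9. Against the intestine sum, vit-2 was higher in the double mutant (132) than in wild type (108).

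**Figure D5:**
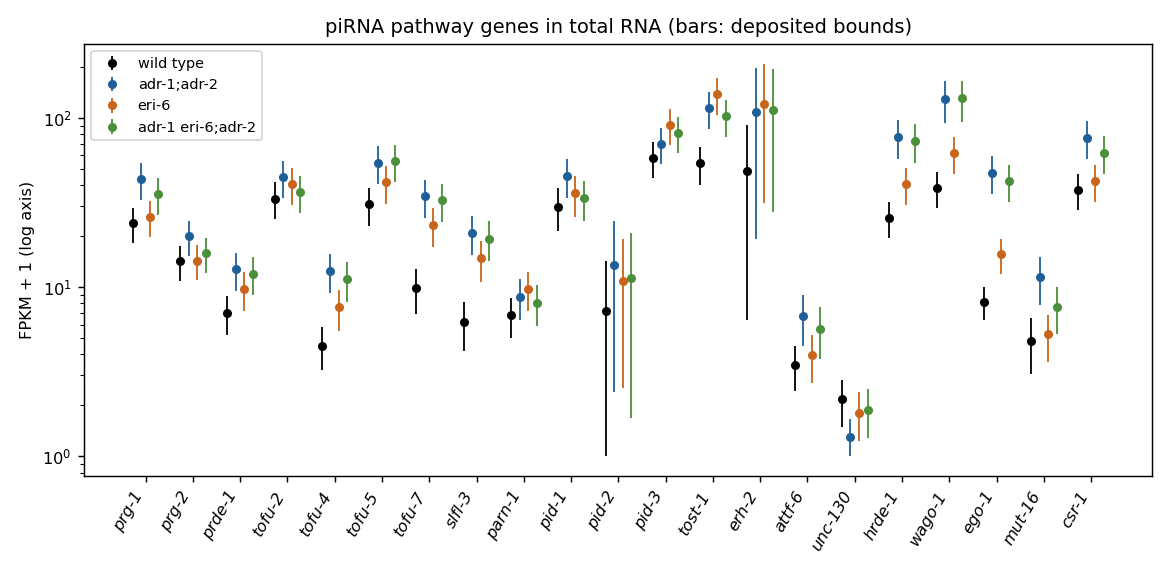
Deposited FPKM plus 1 (log axis) of 21 piRNA pathway genes in total RNA of the 4 genotypes, with the bars showing the deposited lower and upper bounds. In the double mutant, 12 of the 21 lie above wild type with bounds that do not overlap.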

How the data were processed

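Small RNA, total RNA and mRNA of whole worms were measured, and the 6 libraries of the full small RNA tables were grouped by the genotype in their labels. The submitters' processing notes name genome build WBcel235 with Cuffdiff, Cufflinks, TopHat2, DESeq2, featureCounts, BWA and Trim Galore, without settings or strand of counting. The small RNA values were deposited by the authors as normalised reads per gene and library, a signal that came out as whole reads times 1 factor per library within 0.01 read (100% of values), so that reads were recovered. These totals are the depth per sample, and floors of 3 reads cover counting error only. For total RNA and mRNA the authors deposited FPKM, for total RNA 1 value a genotype with bounds of unstated level, and depth is unknown.

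Loci were placed with a RefSeq table of build WBcel235, which held all 8482. Each table's genes with a mean of at least 10 were fitted in R 4.3.3 by limma 3.58.1, with a trend and a pseudocount of 1 before log2, and adjusted by Benjamini-Hochberg over all of them at 0.05, after the fit was tested on simulated data. Alternatives were edgeR 4.0.16 and DESeq2 1.42.0 on recovered reads, a replicate block, other scalings, filters and pseudocounts, and leaving out each library. Python 3.11.15, pandas 2.3.3, numpy 2.4.6, scipy 1.17.1 and matplotlib 3.10.9 were also used. Total RNA genes were tested at 1 FPKM or more in either genotype. Named loci were the 8 highest in wild type, the 8 highest and 8 lowest of each comparison by the smaller within-replicate log2 ratio, those of the triple mutant table and those beside the threshold. The silent interval, the loci that stood alone in 1 library, and T08B6.2, linc-11 and linc-75 with their loci were chosen after their values were seen. The members and lists were chosen with earlier results of these data known. Nothing shows separate cultures, so p-values measure only the spread between these libraries. Sequences, upstream motifs, strand and exons were not analysed here.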

Additional observations from a re-analysis of the deposited data

How the results depend on the processing

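With 2 libraries a group and few reads per locus in replicate 2, single loci are measured poorly. DESeq2 called 2 loci in the double mutant and 3 in eri-6, where limma called 0, and joint TMM scaling called 2 in eri-6. Leaving out each library in turn gave 0 to 8 loci in the double mutant and 2 to 3 in eri-6. The 8 came without double mutant replicate 1, were all lower in BB21 and included 21ur-4147, 21ur-31, 21ur-5303, 21ur-2845 and 21ur-1311; without wild-type replicate 1 there were 3. The lone sample of a group was then assumed to vary like the other group. Every fit that left out a library also called genes outside the loci tested, so these counts do not single out 21U loci. At 4-fold in both replicate numbers, 6 loci were higher and 4 lower in the double mutant, and 11 higher and 6 lower in eri-6. These are 0.171% and 0.114% of loci against 0.934% and 0.142% of all genes, and 0.313% and 0.171% against 0.269% and 0.787%. With at least 10 reads in every library, a filter chosen after seeing the data that leaves out loci low in any of them, 1254 loci were tested. Of these, 77 (6.14%) were higher and 2 (0.159%) lower in the double mutant, against 2.66% and 1.33% of all genes under the filter. In eri-6, 74 (5.90%) were higher and 1 (0.0797%) lower, against 2.13% and 1.33%. With all reference 21U loci, 421 of 5928 (7.10%) were higher in eri-6 and 42 (0.709%) lower, against 3.34% and 2.1% of all genes. In the double mutant, 228 of 5883 (3.88%) were higher and 57 (0.969%) lower, against 3.46% and 1.99%. The eri-6 median log2 ratio within replicate number 2 was 1.16 with reads scaled to library totals and 1.33 with reads scaled to microRNA reads, which moved the median of all genes to 0.29 and 0.44. Within replicate number 1 it was 0.82 at a mean of at least 50. The double mutant median within replicate number 1, without a test and near 0, changed sign to 0.04 with TMM scaling, which put the median of all genes at -0.11, and to 0.19 at a mean of at least 50. With all reference 21U loci the share of reads was 5.63% and 3.24% in wild type, 7.37% and 4.15% in the double mutant, and 9.78% and 4.44% in eri-6. The 2 sign changes of the double mutant median, and not these shares, are among 64 values that moved little. Such values moved by less than the spread between replicate numbers or, for counts, by less than 1.5 times. The cause of these shifts was not tested. The alternative of leaving out loci that overlap an exon of another gene was not run, and gene spans were used instead.

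The labels do not say that a replicate number pairs libraries, and each comparison has only 2 numbers. With the replicate block, limma called 0 loci in the double mutant and 3 lower in eri-6 among 106 genes: 21ur-9823 (adjusted p = 0.0105), 21ur-9719 (0.0218) and 21ur-15566 (0.0393). Deviations of same-numbered libraries correlated at 0.60 between wild type and the double mutant and at 0.68 between wild type and eri-6 over all genes. Over 21U loci these were 0.23 and 0.13. Between the double mutant and eri-6 the correlation was 0.70 over all genes and 0.61 over 21U loci.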
